A study of Arabidopsis thaliana with 6 samples.

Results

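The genes described are those that Arabidopsis thaliana carries in its chloroplast and mitochondrial genomes rather than in the nucleus. They were taken as all array probes outside the control spots whose locus code begins with ATCG (chloroplast) or ATMG (mitochondrion), without regard to their values. These came to 149 of 43603 probes and 133 of 34176 genes on the array. The chloroplast set held 75 probes for 66 loci, and the mitochondrial set 74 probes for 67 loci. The sources used here pair these codes with no gene name, so each gene is given by its locus code alone.

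Chloroplasts and mitochondria keep small genomes of their own, which encode part of the photosynthetic and respiratory complexes and part of the machinery that makes proteins inside the organelle. The other subunits, and most of the factors that transcribe, process and degrade organelle RNA, are encoded in the nucleus and imported. Chloroplast genes are read by a plastid-encoded RNA polymerase, which needs nuclear sigma factors and a set of nuclear associated proteins, and by nuclear-encoded phage-type polymerases, which also read the mitochondrial genes. In plants, poly(A) tails on organelle transcripts are short, and they mark RNA for degradation rather than stabilise it.

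The study compared whole fertilised flowers at stage 15 between wild-type plants and the atnaod mutant. The mutant is a T-DNA insertion line of AtNAOD (AT4G17830), which encodes the N-acetylornithine deacetylase that takes part in making ornithine. Each genotype had 3 samples that the study calls independent biological replicates, each a pool of about 100 flowers from 17 to 20 plants. All plants grew on soil at 25 °C with 16 h of light and 8 h of dark at 120 µmol m-2 s-1, and no treatment is named for either genotype. The mutant is 1 line, and a pool of flowers holds petals, stamens, pistils and early seeds together, so in these bulk samples fewer cells of a type and less RNA per cell cannot be told apart.

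Of 24456 genes tested, 1414 (5.78%) differed between genotypes at a limma adjusted p under 0.05, 665 higher and 749 lower in atnaod. AtNAOD itself was well above background on all 3 wild-type arrays and on 0 of 3 atnaod arrays. Samples 1 and 2 of both genotypes lay on 1 slide, read in 1 scan, and sample 3 of both lay on another. The 75th percentile of the processed intensity was 1318 and 1355 on the second slide and between 1956 and 3007 on the first. All 8 flower identity markers were above background on every array, and 3 of them (STK, SHP1 and SHP2, ovule and carpel genes) were called lower in atnaod. The summed level of the 8 tested pollen markers ran from 10.0 to 12.1 in wild type and from 8.88 to 17.7 in atnaod, with the highest value in atnaod 3. GEX2 and HAP2, which mark sperm cells, were above background on 0 arrays. The summed level of the 4 early seed markers ran from 0.300 to 0.333 in wild type and from 0.194 to 0.304 in atnaod, lowest in atnaod 3, and LEC1 was called lower. AGL62 differed by -0.35 and FWA by -0.56, while MEA went the other way, by 0.38, and these genes were not called. By summed level both lists moved most in atnaod 3, the sample in which the organelle sets stood highest. Their part in the organelle values was not tested.

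Nearly all chloroplast probes gave a usable signal. Of the 75 probes, 74 were well above background on all 6 arrays, and all 66 loci entered the test. ATCG00280 lacked a value in wild type 3, where its spot was flagged as an outlier, so its fit rests on 5 arrays. Mitochondrial probes were less uniformly detected: 57 of 74 were above background on all 6 arrays, 12 on some and 5 on none. 55 of 67 mitochondrial loci passed the filter, which asks for detection on all arrays of at least 1 genotype, and 51 of these were detected on all 6 arrays. Because a locus can pass through the genotype in which it is high, counts over the 55 do not stand for all mitochondrial genes.

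The 12 mitochondrial loci left out were ATMG00030, ATMG00840, ATMG00850, ATMG00870 and ATMG01230, detected on 0 arrays, and 7 detected on some. ATMG00260, ATMG00890 and ATMG01290 were each detected on 0 wild-type arrays and 1 atnaod array. ATMG01400 was detected on 0 and 2 arrays, ATMG00720 on 1 and 2, ATMG00880 on 1 of each genotype and ATMG00680 on 2 of each. The log2 level of ATMG00680, relative to the 75th percentile of the array, was -4.18, -4.19 and -7.51 on the wild-type arrays and -7.63, -5.74 and -7.25 on the atnaod arrays. Wild type itself held both high and low values of ATMG00680, though the lowest value was that of atnaod 1. No genotype difference is given for these loci.

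No organelle gene was called different between genotypes: 0 of 66 chloroplast and 0 of 55 mitochondrial genes passed, against 5.78% of all genes. That share depended on the processing: over 20 alternatives to this fit, from 12 to 3897 of all genes were called. In the main fit the smallest adjusted p was 0.0956 in the chloroplast set and 0.0836 in the mitochondrial set. At an unadjusted limma p under 0.05 there were 3 chloroplast genes (4.55%) and 3 mitochondrial genes (5.45%), where 25.8% of all genes fell. With the sample number as a block these counts were 6 and 9, against 30.9% of all genes, and 0 genes of either set were called, against 5.39%. With slide as a block they were 4 and 5, against 30.3%, and again 0 were called, against 8.68%. The 3 wild-type and 3 atnaod values did not overlap for 5 of 65 chloroplast genes (7.69%), all lower in atnaod, and for 3 of 55 mitochondrial genes (5.45%), all higher. The same was true of 32.3% of all genes with a value on every array, so separated groups were less common in both sets than on the array as a whole. That difference between shares was not tested.

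The genotype differences of chloroplast genes were small. Their log2 differences, atnaod minus wild type, had a median of -0.01 and ran from -0.45 to 0.23, with 28 above 0 and 38 below. Mitochondrial genes had a median of 0.06 and a wider range, from -0.54 to 0.74, with 29 above 0 and 26 below. The median over all genes tested was -0.01. Taken without sign, the median difference was 0.09 for chloroplast genes, 0.19 for mitochondrial genes and 0.17 for all genes. 0 chloroplast genes and 3 mitochondrial genes differed by over 0.5, as 9.81% of all genes did.

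**Figure D1:**
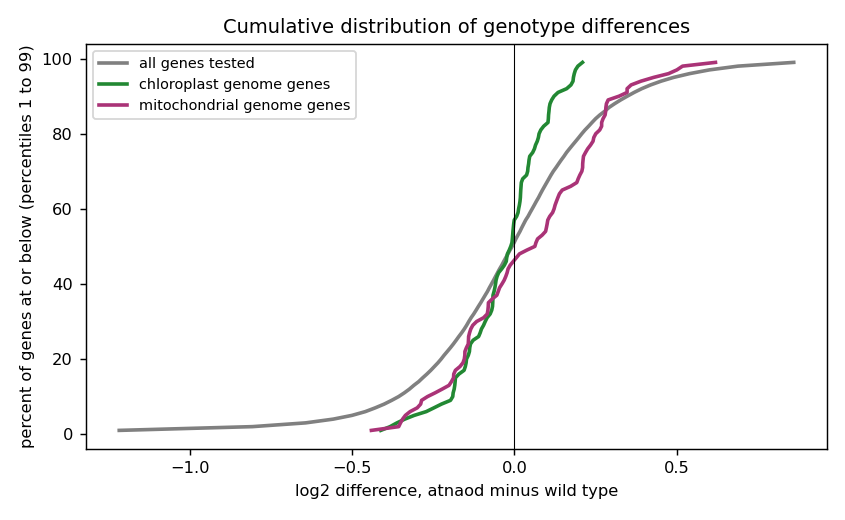
Cumulative percent of genes (y axis) at or below each log2 difference, atnaod minus wild type (x axis), from percentile 1 to 99, for all 24456 genes tested, 66 chloroplast genes and 55 mitochondrial genes. The chloroplast curve is steep and crosses 50% near -0.01, and the mitochondrial curve lies to the right of it over most of its upper part.

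Both sets varied more within a genotype than genes at large. The median SD within a genotype was 0.20 for chloroplast genes and 0.30 for mitochondrial genes, against 0.14 for all genes. The half-width of the 95% interval of the difference had a median of 0.34 for chloroplast genes, 0.48 for mitochondrial genes and 0.28 for all genes. The interval lay within a 2-fold change either way for 65 of 66 chloroplast genes and 49 of 55 mitochondrial genes, and for 91.5% of all genes.

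The 4 chloroplast genes of lowest p had lower means in atnaod. ATCG00050 had wild-type log2 levels of 0.07, 0.31 and 0.12 and atnaod levels of -0.13, -0.21 and -0.12. Every atnaod sample lay below every wild-type sample, and the difference was -0.32 (SE 0.10, adjusted p = 0.0956), a 1.25-fold lower level. ATCG00640 had wild-type levels of 3.25, 3.74 and 3.71 and atnaod levels of 3.04, 3.20 and 3.13. The groups again did not overlap, wild type 1 lay nearest to atnaod, and the difference was -0.45 (SE 0.15, adjusted p = 0.116). ATCG00650, the next locus code, had wild-type levels of 3.35, 3.62 and 3.41 and atnaod levels of 3.18, 3.18 and 2.84, a difference of -0.39 (SE 0.13, adjusted p = 0.120) with no overlap and atnaod 3 lowest. With array weights in the limma fit ATCG00050 (adjusted p = 0.0298) and ATCG00640 (adjusted p = 0.0332) were called lower, beside 15.9% of all genes. Without wild type 1, the wild-type sample of lowest ATCG00640 level, ATCG00640 was called at a difference of -0.60 (adjusted p = 0.0461), beside 2.32% of all genes.

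ATCG00870 had wild-type levels of 1.34, 1.14 and 1.23 and atnaod levels of 0.55, 1.02 and 1.07, a difference of -0.36 (SE 0.15, adjusted p = 0.196). The groups did not overlap, but atnaod 1 lay far below the other atnaod samples, and without it the difference was -0.19. ATCG01090 was the other chloroplast gene counted as not overlapping, and its difference was -0.11. Its groups nearly touched, with wild type 1 at 4.1827 and atnaod 1 at 4.1825. The next 4 genes in order of p had overlapping groups.

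ATCG00170 had wild-type levels of 3.06, 2.82 and 2.84 and atnaod levels of 3.05, 3.11 and 3.11, a difference of 0.18 that wild type 1 narrowed. ATCG01000 had wild-type levels of 1.13, 1.11 and 1.04 and atnaod levels of 1.01, 1.08 and 0.78, a difference of -0.14 with atnaod 3 lowest. The other two differed more but were spread more widely within each genotype. ATCG00430 had wild-type levels of 3.27, 3.54 and 3.77 and atnaod levels of 3.01, 3.30 and 3.48, a difference of -0.27. ATCG00420 had wild-type levels of 4.09, 4.47 and 4.64 and atnaod levels of 3.92, 4.23 and 4.36, a difference of -0.23. ATCG00420 and ATCG00430, whose codes follow each other, both stood lowest in atnaod 1 and highest in wild type 3. With 1 array left out the difference of ATCG00430 ranged from -0.39 (without wild type 1) to -0.14 (without atnaod 1; -0.15 without wild type 3). That of ATCG00420 ranged from -0.39 to -0.11 without the same arrays (-0.11 without wild type 3), and ATCG01000 stood at -0.05 without atnaod 3.

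The mitochondrial genes of lowest p went both ways. ATMG00080 had wild-type levels of 1.42, 1.17 and 0.92 and atnaod levels of 1.60, 1.62 and 1.76. Every atnaod sample lay above every wild-type sample, and the difference was 0.49 (SE 0.14, adjusted p = 0.0836). Within the slides it was 0.31 on the first and 0.84 on the second. A trended, robust prior for the spread called ATMG00080 (adjusted p = 0.0447), as the only organelle gene, beside 9.24% of all genes, and array weights called it too.

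ATMG00990 had wild-type levels of 0.35, 0.14 and 0.24 and atnaod levels of 0.76, 0.49 and 1.69. The groups did not overlap, the difference was 0.74 (SE 0.29, adjusted p = 0.171), and atnaod 3 stood apart from the other atnaod samples: without it the difference was 0.38. ATMG01000, the next locus code, followed the same order of arrays, with wild-type levels of 0.20, 0.13 and 0.17 and atnaod levels of 0.56, 0.22 and 1.28. Its difference of 0.52 (SE 0.25, adjusted p = 0.242) was 0.22 without atnaod 3. In both genes the 3 wild-type samples, on both slides, lay close together, and the atnaod samples were spread more widely.

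ATMG00630 had wild-type levels of -1.526, -1.999 and -1.531 and atnaod levels of -2.03, -2.15 and -1.95, a difference of -0.36 (SE 0.15, adjusted p = 0.186). Its groups overlapped through wild type 2. ATMG00130 showed the most negative difference of the mitochondrial set, -0.54 (SE 0.27, adjusted p = 0.255), with wild-type levels of -6.15, -5.78 and -5.49 and atnaod levels of -6.90, -6.07 and -6.06. It was detected on 3 wild-type arrays but on 2 of 3 atnaod arrays, and so passed the filter through wild type alone. Its atnaod 1 value lay below all others, the groups overlapped through wild type 1, and the difference was -0.26 without atnaod 1 and -0.13 with normexp background correction.

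ATMG00490 had wild-type levels of 1.49, 1.06 and 1.25 and atnaod levels of 1.54, 1.38 and 1.72, a difference of 0.28. ATMG01330 had wild-type levels of 0.71, 0.21 and 0.74 and atnaod levels of 0.67, 0.76 and 1.27, a difference of 0.35. In both genes wild type 2 was lowest and atnaod 3 highest, and the groups overlapped. ATMG01060 had wild-type levels of -2.03, -1.64 and -1.53 and atnaod levels of -2.41, -2.07 and -1.72, a difference of -0.33 with overlap and atnaod 1 lowest. These differences also moved with single arrays: ATMG00490 stood at 0.18 without wild type 2, ATMG01330 at 0.17 without wild type 2 and 0.16 without atnaod 3, and ATMG01060 at -0.16 without atnaod 1 and -0.50 without atnaod 3.

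**Figure D2:**
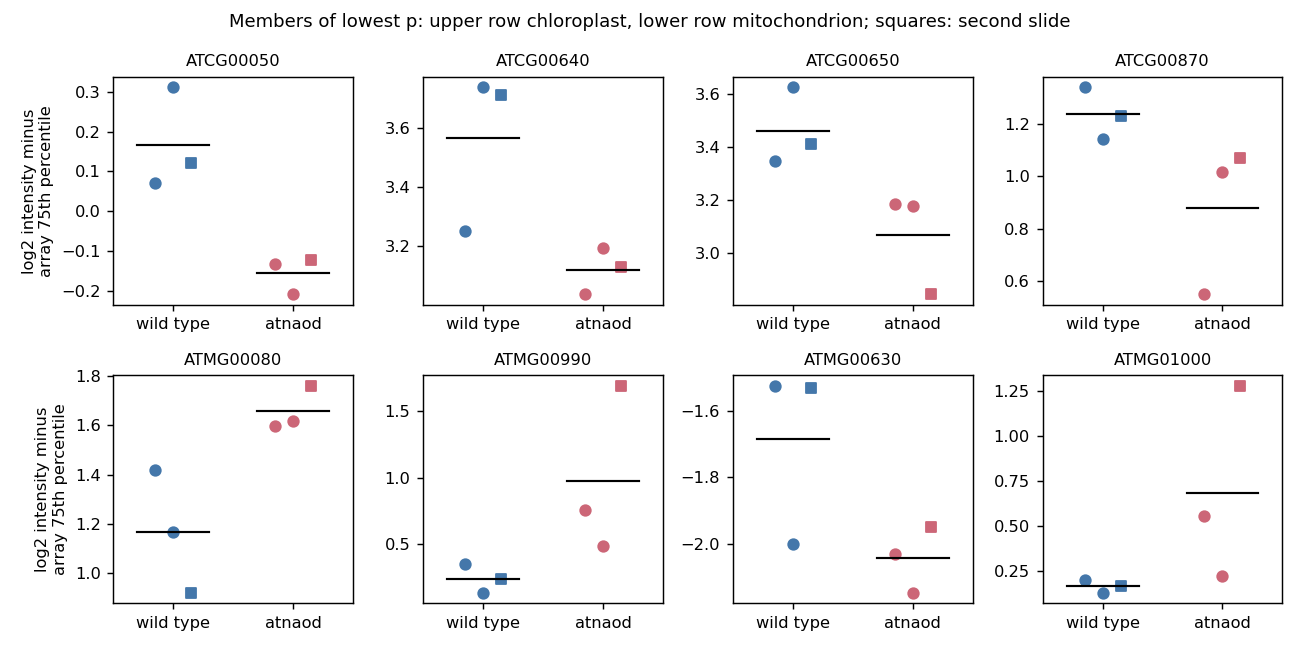
Log2 intensity minus the 75th percentile of the array (y axis, its own scale in each panel) in every sample for the 4 chloroplast genes (upper row) and 4 mitochondrial genes (lower row) of lowest p. Circles are samples on the first slide, squares those on the second, and bars are genotype means. ATCG00050, ATCG00640, ATCG00650 and ATCG00870 lie lower in all atnaod samples, and the high square of ATMG00990 and of ATMG01000 is atnaod 3.

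The member of highest signal in each genome differed little between genotypes. ATCG00950 had wild-type levels of 6.96, 7.14 and 7.33 and atnaod levels of 7.13, 6.84 and 7.24, a difference of -0.07 (SE 0.14). ATMG00020 had wild-type levels of 7.02, 7.19 and 7.80 and atnaod levels of 7.40, 6.96 and 7.65, a difference of -0.00 (SE 0.25). In both genes the groups overlapped throughout, and sample 3 was the highest of its genotype. ATMG00020 had 3 tested probes, and the levels given are those of the brightest. Over all arrays another probe lay between 6.13 and 6.64, and the dimmest between -1.60 and -1.04. The rank of ATMG00020 thus rests on the probe chosen. At the dimmest probe sample 1, not sample 3, was the highest of each genotype.

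Several probes for 1 locus gave a check of the genotype difference within the array. The slide shift described below rests on 1 probe for each locus, and whether other probes of a locus share it was not tested. Of 7 chloroplast loci with several tested probes, 5 had probes of the same sign and 2 of opposite sign. The widest gap was at ATCG00020, where the differences were -0.28 and 0.02. Of 5 such mitochondrial loci, 3 had probes of the same sign and 2 of opposite sign, and the widest gap was at ATMG00690, with -0.17 and 0.14. All probes of these 12 loci had an unadjusted limma p over 0.05.

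Both sets shifted together between slides. Relative to the wild-type mean of each gene, the median chloroplast level was -0.13, -0.04 and 0.17 on the 3 wild-type arrays and -0.18, -0.03 and 0.19 on the 3 atnaod arrays. The median mitochondrial level was 0.07, -0.19 and 0.18 on the wild-type arrays and -0.12, 0.02 and 0.31 on the atnaod arrays. Sample 3, on the second slide, was highest in both genotypes and in both sets. The medians over all genes lay between -0.02 and 0.01 on the 6 arrays.

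**Figure D3:**
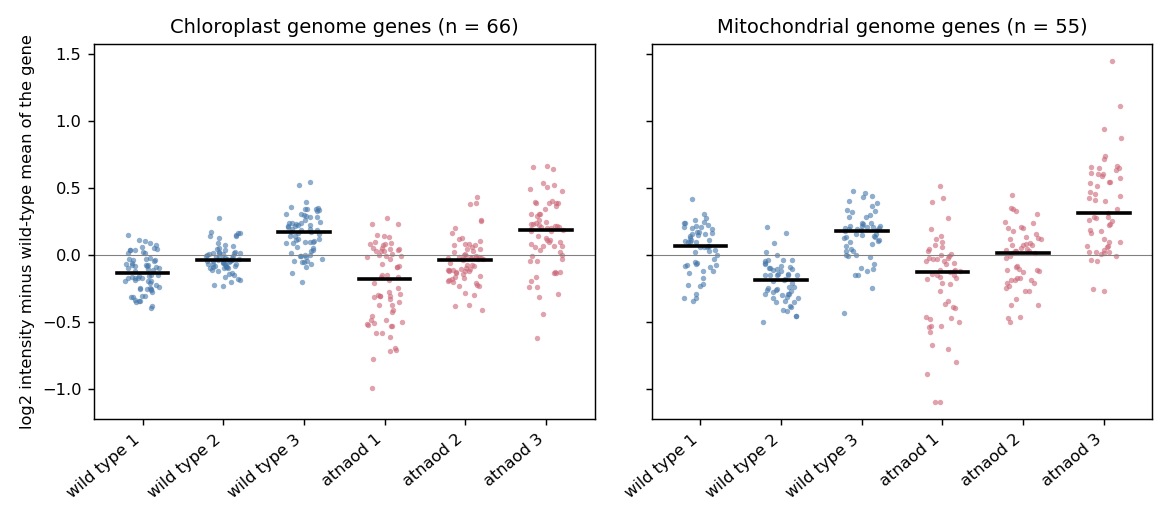
Log2 intensity of each chloroplast gene (left, n = 66) and mitochondrial gene (right, n = 55) minus its wild-type mean (y axis) in each of the 6 samples. Each point is 1 gene and each bar the median. The bars of sample 3 stand at 0.17 and 0.19 for chloroplast genes and at 0.18 and 0.31 for mitochondrial genes, above the other samples of their genotype.

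In wild type the second slide exceeded the mean of the first by a median of 0.25 for chloroplast and 0.27 for mitochondrial genes. In atnaod the values were 0.28 and 0.48. Over all genes they were 0.01 and 0.00. Both arrays of the second slide lay above the other 4 for 35 of 65 chloroplast genes (53.8%) and 25 of 55 mitochondrial genes (45.5%), against 10.3% of all genes. The reverse order was found for 3 chloroplast and 0 mitochondrial genes, against 9.35% of all genes.

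A limma fit with genotype and slide, chosen after these values were seen, gave the second slide against the first. It called 0 organelle genes, where 0.123% of all genes were called higher and 0.0613% lower on the second slide. At an unadjusted p under 0.05 stood 29 of 66 chloroplast genes (43.9%) and 27 of 55 mitochondrial genes (49.1%), against 15.5% of all genes. The slide difference was above 0 in 54 of 66 chloroplast and 51 of 55 mitochondrial genes, with medians of 0.26 and 0.39, and was 0.01 over all genes. ATCG01080 had the lowest adjusted p of the slide term, 0.0503, with a slide difference of 0.81. Its wild-type levels were 1.61, 1.78 and 2.48, and its atnaod levels 1.75, 1.82 and 2.61, so sample 3 of both genotypes lay far above the other 4 while the genotypes ran side by side. ATMG00670 had the lowest in the mitochondrial set, 0.0547, with a slide difference of 0.64. Its wild-type levels were -2.28, -2.33 and -1.58, and its atnaod levels -2.54, -2.54 and -1.97. ATCG00710, ATMG00710, ATMG01020 and ATMG01390 came next in their sets, with slide differences of 0.56, 0.70, 0.59 and 0.64, and all of them were higher in sample 3 of both genotypes. The second slide, its scan and sample 3 coincide and cannot be told apart.

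**Figure D4:**
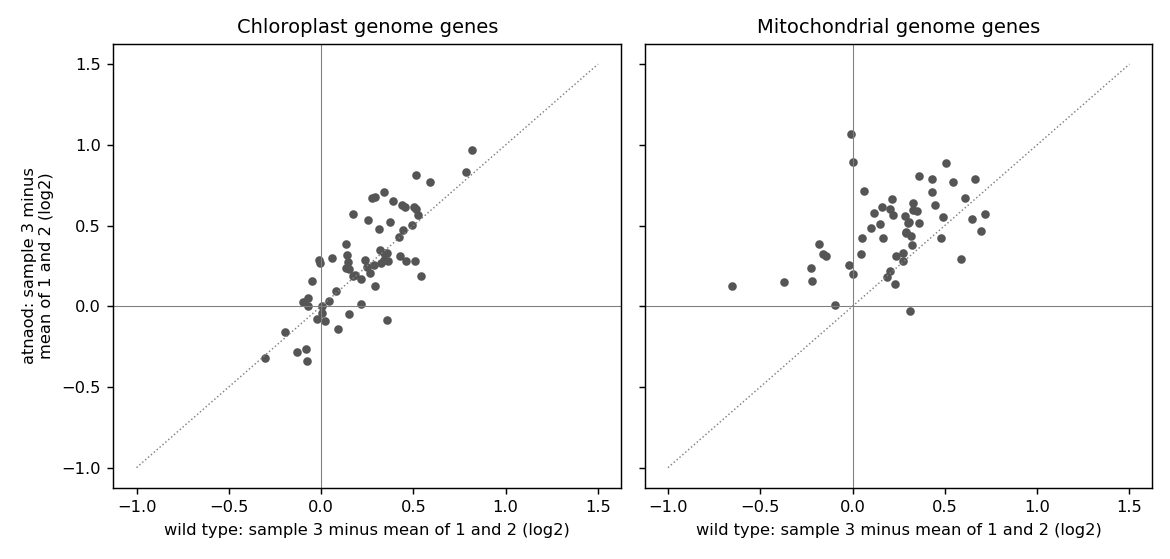
Level of each gene in sample 3 (second slide) minus the mean of samples 1 and 2 (first slide), in log2, in wild type (x axis) and atnaod (y axis), for chloroplast genes (left) and mitochondrial genes (right). The dotted line marks equal values. Most points lie in the upper right of their panel, and most mitochondrial points lie above the line.

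Arrays of the first slide also differed among themselves. The atnaod 1 array was the lowest of the 6 arrays for 30 of 65 chloroplast genes (46.2%) and 20 of 55 mitochondrial genes (36.4%), against 15.0% of all genes. This count was made for atnaod 1 alone. By median level wild type 2 was the lowest mitochondrial array, at -0.19 against -0.12 in atnaod 1. By share of signal wild type 1 was the lowest chloroplast array, at 2.96% against 3.01% in atnaod 1. ATCG00330 was highest in sample 3 of each genotype and lowest in atnaod 1. Its wild-type levels were -1.35, -1.27 and -0.50 and its atnaod levels -2.03, -0.66 and -0.38. It had the widest range of the chloroplast set, 1.65, at a genotype difference of 0.02. The range over the 6 arrays had a median of 0.54 for chloroplast genes, 0.82 for mitochondrial genes and 0.47 for all genes. ATCG01100 was the steadiest member, with all 6 arrays between 2.61 and 2.77.

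Within slides the genotype difference of the chloroplast set stayed near 0, with medians of -0.05 on the first and -0.03 on the second. For the mitochondrial set the medians were -0.02 and 0.20. The sign was the same on both slides for 42 chloroplast genes (64.6%) and 38 mitochondrial genes (69.1%), against 78.5% of all genes. Leaving out 1 array at a time moved the chloroplast median between -0.13, without atnaod 3, and 0.04, without atnaod 1. The mitochondrial median moved between -0.08 and 0.15, without the same arrays.

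The share of all probe signal that came from organelle probes followed the slides too. Chloroplast probes held 2.96%, 3.18% and 3.42% of the summed intensity on the wild-type arrays and 3.01%, 3.12% and 3.48% on the atnaod arrays. Mitochondrial probes held 0.523%, 0.492% and 0.653% on the wild-type arrays and 0.551%, 0.507% and 0.696% on the atnaod arrays. Sample 3 was highest in each genotype, and the genotypes overlapped. These are shares of array signal, not of transcripts, since probes differ in how strongly they bind.

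The nuclear genes that work with these genomes were read from the same fit. The nuclear photosynthesis list held genes for antenna proteins, photosystem subunits and the small subunit of Rubisco, and others such as PETC, PETE1, ATPC1 and ATPD. Of its 50 genes, 0 were called, with a median difference of -0.07, 16 above 0 and 34 below. The groups did not overlap for 8 of them (16.0%), 1 higher and 7 lower in atnaod, where 32.3% of all genes did not overlap and 5.78% were called. The lowest p fell to the photosystem I genes Lhca6, with a difference of -0.24 (adjusted p = 0.126), PSAE-1, with -0.24 (adjusted p = 0.146), and PSAD-2, with -0.21, and to the photosystem II gene PSBQ-2, with -0.20. The nuclear photosynthesis genes also stood higher on the second slide, by a median of 0.22 in wild type and 0.19 in atnaod. The slide pattern was not limited to genes of the organelle genomes. It was not shared by all related nuclear lists, which are described below. The 21 genes of organelle transcription stood lower on the second slide, with median slide differences of -0.16 (wild type) and -0.17 (atnaod). For the 4 genes of organelle RNA decay these medians were -0.22 (wild type) and -0.18 (atnaod).

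Of 16 nuclear genes of mitochondrial respiration, 0 were called, against 5.78% of all genes, and the median difference was -0.03. SDH1-1, a subunit of succinate dehydrogenase, differed by 0.28 (adjusted p = 0.239), COX6B, a subunit of cytochrome c oxidase, by -0.19, CYTC-1, a cytochrome c, by -0.21, and AT5G13430 by -0.17. These genes did not share the slide pattern of the mitochondrial genome: sample 3 exceeded the others by a median of 0.01 in wild type and -0.01 in atnaod. Of 4 nuclear genes of organelle RNA decay, 0 were called, and at 5.78% neither list is long enough for a count of 0 to stand out. EMB2730 differed by 0.27, AT5G14580 by -0.29, RNEE/G, an endoribonuclease, by -0.14 and RIF10, the chloroplast polynucleotide phosphorylase, by 0.01.

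Called genes were found among the 21 nuclear genes of organelle transcription. SIGA, a sigma factor of the plastid-encoded polymerase, rose in atnaod, from 0.68, 0.86 and 0.66 in wild type to 1.39, 1.37 and 1.48. The difference was 0.68 (SE 0.09, adjusted p = 0.0226), and it was among the 2.72% of all genes called higher. PTAC7, a protein of the plastid transcriptionally active chromosome, fell from 2.06, 2.27 and 2.16 to 1.59, 1.61 and 1.59, a difference of -0.56 (SE 0.09, adjusted p = 0.0282). TRX z, a thioredoxin bound to the plastid-encoded polymerase, fell from 1.91, 1.66 and 1.65 to 1.23, 1.14 and 0.91, a difference of -0.65 (SE 0.12, adjusted p = 0.0364). None of these 3 genes had overlapping groups, and 3.06% of all genes were called lower. With 1 array left out the adjusted p ranged from 0.0262 to 0.108 for SIGA, from 0.0404 to 0.123 for PTAC7 and from 0.0370 to 0.131 for TRX z. The calls were lost without wild type 2, wild type 3, atnaod 2 or atnaod 3 for each of them, and for TRX z also without wild type 1. The differences themselves stayed between 0.65 and 0.75 for SIGA, between -0.62 and -0.51 for PTAC7 and between -0.72 and -0.56 for TRX z.

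The remaining genes of organelle transcription were not called. FSD3 and FSD2, iron superoxide dismutases of the chloroplast, differed by -0.56 (adjusted p = 0.0560) and -0.57 (adjusted p = 0.0680), and FSD3 was called in 4 of 20 alternatives, among them the fit with the sample number as a block (adjusted p = 0.0470). FLN1, a fructokinase-like protein of the plastid polymerase complex, differed by -0.46, and SIGE, another sigma factor, by 0.32. The other sigma factors of the list did not share the rise of SIGA and SIGE. SIG4 differed by -0.21, with every atnaod sample below every wild-type sample. SIG2 differed by -0.07, SIGC by 0.12 and SIGF by 0.02. PTAC12 differed by -0.36 and MURE by 0.31. The nuclear phage-type polymerases MGP3, SCA3 and AT5G15700 differed by 0.17, -0.13 and 0.08. Over the list 10 of 21 genes (47.6%) had an unadjusted limma p under 0.05 and 10 had groups that did not overlap, beside 25.8% and 32.3% of all genes, and the median difference was -0.12. Which chloroplast genes the plastid-encoded polymerase reads was not analysed here, and 0 of all 66 passed the test.

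**Figure D5:**
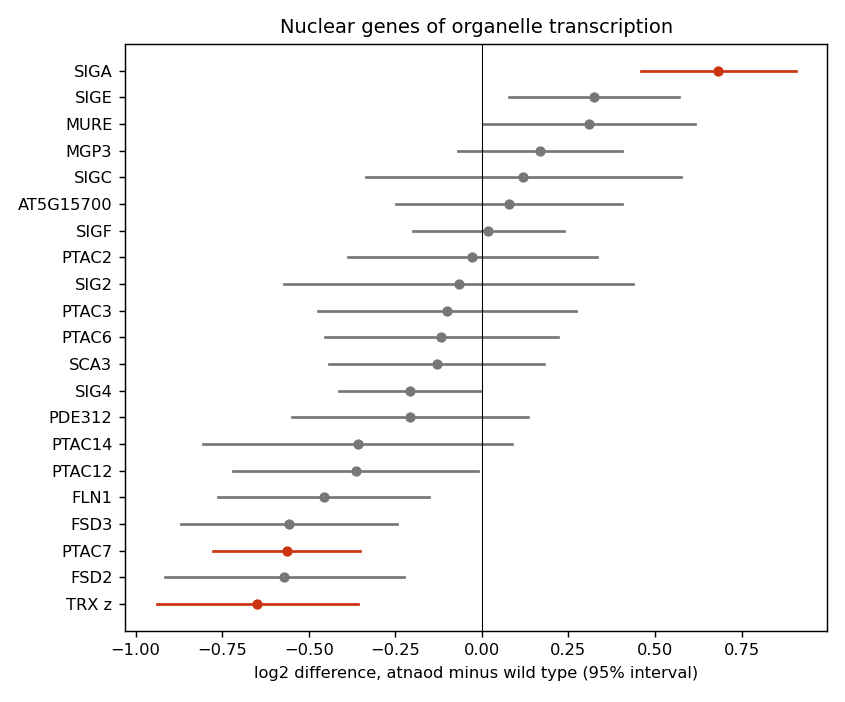
Log2 difference, atnaod minus wild type (x axis), with its 95% interval for the 21 nuclear genes of organelle transcription (y axis). Red marks the 3 genes with an adjusted p under 0.05: SIGA at 0.68, PTAC7 at -0.56 and TRX z at -0.65.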

How the data were processed

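Total RNA from 6 flower samples was labelled with Cy3 from 200 ng, per the labels' protocols, and read on 1-colour Agilent arrays with Feature Extraction 10.5.1.1, per the file headers (10.5 per the submitters' processing notes). The deposited scanner values are fluorescence intensity per spot. The authors' deposited values per probe are also intensity: each column was the median spot signal times 1 constant (0.732, 0.841 and 1.61 for wild type 1 to 3, 1.12, 0.774 and 1.57 for atnaod 1 to 3), with column medians of 450.9, 465.7, 518.9, 472.0, 457.2 and 498.4, on a linear scale without centring. The 75th percentiles of these columns were alike, between 2140 and 2144, so the columns were aligned at that point. The deposited values served as an alternative.

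The log2 of the deposited processed intensity minus the 75th percentile of the array was used. Outlier spots (2 to 35 per array) were left out. A probe was kept if every array of either genotype marked it as well above background, and the probe of highest mean stood for a gene. limma 3.58.1 in R 4.3.3 (package data.table in version 1.17.8) tested 24456 genes with lmFit and eBayes, two-sided, 3 against 3, with Benjamini-Hochberg adjustment over all of them. Levels are on that log2 scale, differences are atnaod minus wild type, and intervals are 95% intervals of the fit. The procedure was tested on simulated data with independent noise and planted changes larger than any organelle difference seen here. That simulation held no slide shift and does not cover differences of the organelle sizes. The number of arrays limits the precision.

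Deviations from the genotype means correlated between samples of the same number at 0.190, 0.111 and 0.535 over all genes, and a block fit was run. Within the first slide, samples of different number correlated at 0.215 and 0.105, so the numbers 1 and 2 were not told from each other, and for sample 3 the number is also the slide.

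The members and gene lists were chosen with earlier results of these data known. Values in every sample were due for members called, for the 8 of lowest p and for the member of highest signal in each genome, and the 4 of lowest p were named in each nuclear list. The rule also named representatives of functional classes, the plastid polymerase and complex IV. That part was not applied, because 0 of 133 organelle codes were paired with a name in RefSeq, while all 113 nuclear list genes were. Members just outside these ranks, such as ATCG01090, ATCG00330, ATCG01100 and the genes of largest slide term, were named after their values were seen. In the organelle transcription list, genes beyond the 4 of lowest p were also named with their values known. For normexp, planned on mean spot signals, median signals were used, and 5 spot backgrounds over 10 times the array median were set to that median, a choice made after seeing the data.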

Additional observations from a re-analysis of the deposited data

How the results depend on the processing

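Under normalization by quantiles or medians, normexp background correction and other probe filters, 0 organelle genes were called in either set. The same count came from the deposited values, the mean over probes, slide as a block and the first slide alone. With the replicate numbers as a block, 0 chloroplast and 0 mitochondrial genes were called and 1317 of all genes. The exceptions were array weights, with 2 chloroplast genes (ATCG00050, -0.38, adjusted p = 0.0298, and ATCG00640, -0.49, adjusted p = 0.0332) and 1 mitochondrial gene (ATMG00080, 0.52, adjusted p = 0.0269) beside 3897 of all genes (15.9%), and a trended, robust prior, with 1 mitochondrial gene (ATMG00080, 0.49, adjusted p = 0.0447) beside 2259 (9.24%). Leaving out 1 array gave 0 to 1 chloroplast genes (ATCG00640 without wild type 1, -0.60, adjusted p = 0.0461) and 0 mitochondrial genes, while calls over all genes ranged from 14 to 1468. All genes called numbered 245 with normexp, 12 with the deposited values, 22 without the filter on dim probes, 2124 with slide as a block and 27 on the first slide alone. Under normexp, the deposited values, no filter and the first slide alone, few of all genes were called. A count of 0 organelle genes in those settings therefore says little about the organelle sets. The causes of these changes in the total were not tested, except that the first slide alone has fewer samples. SIGA and PTAC7 lost their calls in 7 of 20 alternatives and TRX z in 8, at differences of 0.61 to 0.75, -0.62 to -0.51 and -0.72 to -0.56 over the 20. FSD3 was called in 4 (filter on all 6 arrays, trended prior, array weights and replicate block, lowest adjusted p = 0.0255) and PSAE-1 in 1 (array weights, -0.30, adjusted p = 0.0430), though its difference was -0.06 with normexp and with the deposited values. RIF10, at 0.01, reversed to -0.038 on the first slide alone and ranged from -0.11 to 0.16 with 1 array left out. The chloroplast median changed sign, to 0.01, under quantile normalization and median centring, within the spread between samples. Leaving out saturated spots removed 0 spots.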
